A study of Mus musculus with 57 samples.

Results

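The data describe 10 genes of neural stem and progenitor cells, Nes, Pax6, Sox9, Sox3, Sox21, Sox11, Fabp7, Msi1, Sox1ot and Cpe, in 57 RNA-seq libraries of mouse embryonic stem cells (ESCs) leaving pluripotency. The members were chosen by name and matched to the count table through their Ensembl identifiers, and all 10 of 10 were found among its 55450 genes. Every library came from the Sox1-EGFP/FoxA2mCherry line, a selected clone of ESCs in which EGFP stands in place of an allele of Sox1, a neuroectoderm transcription factor, and mCherry is fused to FOXA2, an endoderm transcription factor. All groups therefore carried a single intact Sox1 allele.

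The libraries were made from small pools of cells and fell into 19 groups of 3. The D0 group held Sox1-FOXA2- cells grown in SerumLIF, the medium that keeps ESCs pluripotent. The D2, D4 and D6 groups held cells after 2, 4 or 6 days in N2B27 medium with 1 uM retinoic acid (RA), sorted into Sox1-FOXA2-, Sox1+FOXA2-, Sox1+FOXA2+ and Sox1-FOXA2+ populations. For the progeny groups, the 3 reporter-positive populations (Sox1+FOXA2-; Sox1+FOXA2+; Sox1-FOXA2+) were taken at D2, replated in serum-based medium with RA and harvested at D4 or D6 without a new sort. Progeny thus differ from cells sorted on the same day in replating, basal medium and the lack of a second sort, and these cannot be told apart. The study describes the replicates as biological, while the labels number them without naming separate cultures, so all p-values measure the spread between these libraries.

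Neural progenitors are dividing cells of the early neural plate and neural tube that give rise to neurons and later to glia. SOX transcription factors keep them in the progenitor state, PAX6 patterns them along the dorsoventral axis, and nestin fills their cytoskeleton. RA is a classic inducer of neural fate in ESCs in the absence of serum. Several of these genes are also used outside the neural tube: Nes in muscle, vascular and mesenchymal precursors, Sox9 in neural crest and cartilage, and Cpe in many secretory cells.

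Libraries held between 10170632 and 81845651 counts (median 36694379), and the counts were scaled with DESeq2 size factors to give the normalized counts printed here. Sox1 and Sox2 had 0 counts in all 57 libraries, and this says nothing about their expression. Of 485 protein-coding genes lying wholly inside the span of another gene on the same strand, 485 had 0 counts, as had 749 of 752 lying inside a gene on the other strand, against 2.81% of 11798 genes whose span overlaps no other gene. Sox1 lies inside the span of Sox1ot and Sox2 inside that of Sox2ot. The Sox1 gate could therefore not be checked by its own transcript. Foxa2 could: at D6 it had 2697, 1478 and 2585 normalized counts in the Sox1-FOXA2+ libraries and 131, 124 and 20.3 in the Sox1+FOXA2- libraries. In the D6 Sox1+FOXA2+ libraries it had only 0, 728 and 76.6, and replicate 1 of this group sorted as FOXA2+ thus had no count of Foxa2.

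The members fell into those counted in nearly every library and those counted in few. Nes, Pax6, Sox11, Msi1 and Cpe had counts in all 57 libraries and Sox9 in all but 1. Sox21 was at 0 in 9 libraries, Sox3 in 16, Sox1ot in 17 and Fabp7 in 39. Per kilobase of exon outside other genes' spans, the mean over the 19 groups was highest for Nes, at 983 normalized counts per kilobase, followed by Cpe at 678, Sox11 at 307, Sox9 at 305 and Msi1 at 205. It was 72.7 for Fabp7, 62.9 for Pax6, 55.9 for Sox3, 55.6 for Sox21 and 11.6 for Sox1ot. Because whole gene spans appear to have been counted, intronic reads may raise the level of long genes such as Cpe on this scale. The libraries hold RNA of many cells, so fewer expressing cells and less RNA per cell cannot be told apart in any value here.

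**Figure D1:**
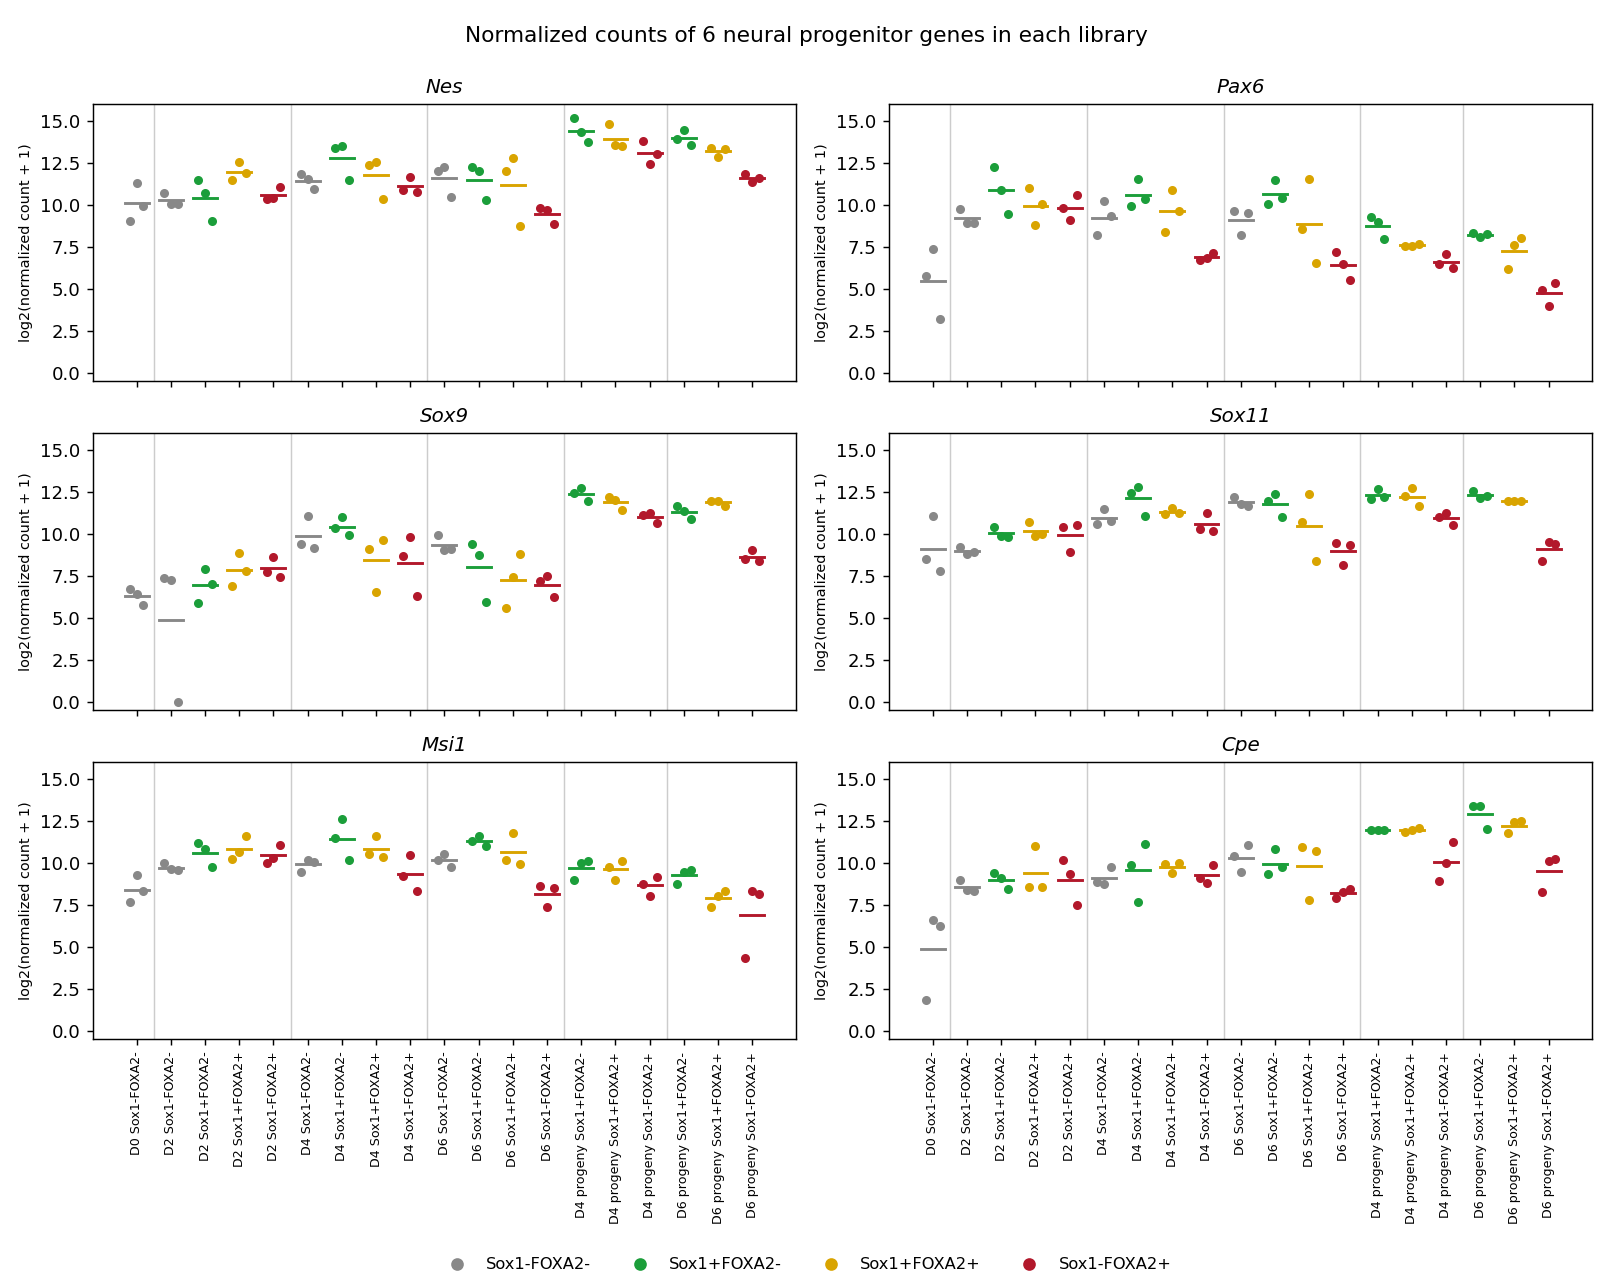
Normalized counts, as log2(normalized count + 1), of the 6 members counted in nearly every library. Points are single libraries and bars the mean of 3, with colours for the sorted population (grey Sox1-FOXA2-, green Sox1+FOXA2-, yellow Sox1+FOXA2+, red Sox1-FOXA2+). Nes, Sox9 and Cpe are higher in the progeny groups than in most sorted groups, except the D6 progeny of Sox1-FOXA2+ cells, while Pax6 and Msi1 are not.

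Pax6, the paired-box factor of the dorsoventral neural tube and the eye, lies on chromosome 2 from 105668900 to 105697364 (GRCm38, GENCODE M21, plus strand). Its mean was highest in D2 Sox1+FOXA2- cells, at 2514 ± 2196 normalized counts (SD, n = 3), and lowest in the D6 progeny of Sox1-FOXA2+ cells, at 27.7 ± 12.6. In D0 cells the libraries had 52.3, 166 and 8.27. When the 19 groups were ordered by their mean, the libraries of neighbouring groups overlapped in all but 1 of 18 neighbouring pairs, so the order gives a gradient and not steps.

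Nes, which encodes the intermediate filament nestin, lies on chromosome 3 from 87971078 to 87980451 (plus strand). Its highest mean was that of the D4 progeny of Sox1+FOXA2- cells, at 24018 ± 12369 (SD, n = 3), and its lowest that of D6 Sox1-FOXA2+ cells, at 722 ± 224. ESCs at D0 already had 530.1, 2558 and 984. Neighbouring groups overlapped in all but 2 of 18 pairs.

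The SOX members belong to different branches of the family. Sox11 (chromosome 12 from 27334264 to 27342574, minus strand), a SOXC gene that acts as progenitors become neurons, was highest in the D4 progeny of Sox1+FOXA2- cells, at 5175 ± 1105, and lowest in D2 Sox1-FOXA2- cells, at 502 ± 74.6. Sox9 (chromosome 11 from 112782224 to 112787760, plus strand), needed for neural stem cells, glia and neural crest, ranged from 79.6 ± 24.3 in D0 cells to 5473 ± 1381 in the D4 progeny of Sox1+FOXA2- cells. Neighbouring groups did not overlap in 1 of 18 pairs for Sox9 and in 0 for Sox11.

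Sox3 (chromosome X from 60891366 to 60893430, minus strand) belongs with Sox1 and Sox2 to the SOXB1 genes, which hold cells in the progenitor state, and Sox21 (chromosome 14 from 118233232 to 118237030, minus strand) counteracts them. The highest library had 1153 normalized counts of Sox3 and 1161 of Sox21, and the medians over all libraries were 34.4 and 80.0. Sox21 partly overlaps the antisense gene Gm4675, and its counts may lack reads from there. For both genes every neighbouring pair of groups overlapped.

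Msi1 (chromosome 5 from 115429599 to 115455698, plus strand), an RNA-binding protein of neural stem cells, ranged from 204 ± 162 in the D6 progeny of Sox1-FOXA2+ cells to 3405 ± 2549.8 in D4 Sox1+FOXA2- cells. Cpe (chromosome 8 from 64592542 to 64693054, minus strand), a carboxypeptidase that trims prohormones and neuropeptides, ranged from 57.3 ± 48.5 in D0 cells to 8577 ± 3781 in the D6 progeny of Sox1+FOXA2- cells. Msi1 groups overlapped in every neighbouring pair, and Cpe groups in all but 2 of 18.

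Fabp7 (chromosome 10 from 57784881 to 57788450, plus strand), the brain fatty acid-binding protein of radial glia, was at 0 in every library of 6 groups. It was counted in all 3 libraries of a single group, D6 Sox1+FOXA2-, with 1156, 567 and 64.7 normalized counts. At D4 it had 370.4, 2104 and 0 in the Sox1+FOXA2- libraries and 0, 619.9 and 0 in the Sox1+FOXA2+ libraries. The 5 libraries with the most Fabp7 were thus all D4 or D6 libraries sorted as Sox1+.

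Sox1ot (chromosome 8 from 12385771 to 12436768, plus strand) is the long non-coding transcript within whose span Sox1 lies. It had 112, 433 and 242 normalized counts in D4 Sox1+FOXA2- libraries and 230.1, 209.6 and 699 in D6 Sox1+FOXA2- libraries. In the D6 Sox1-FOXA2+ libraries it had 32.6, 0 and 0. Its lowest mean of the 19 groups was in D2 Sox1+FOXA2+ cells, at 3.63 ± 6.29. In Sox1+FOXA2+ libraries it ranged from 0 to 937 at D4 and from 0 to 451 at D6. High Sox1ot thus did not go with every group sorted as Sox1+. Reads from the stretch it shares with Sox1 may be missing from its count.

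**Figure D2:**
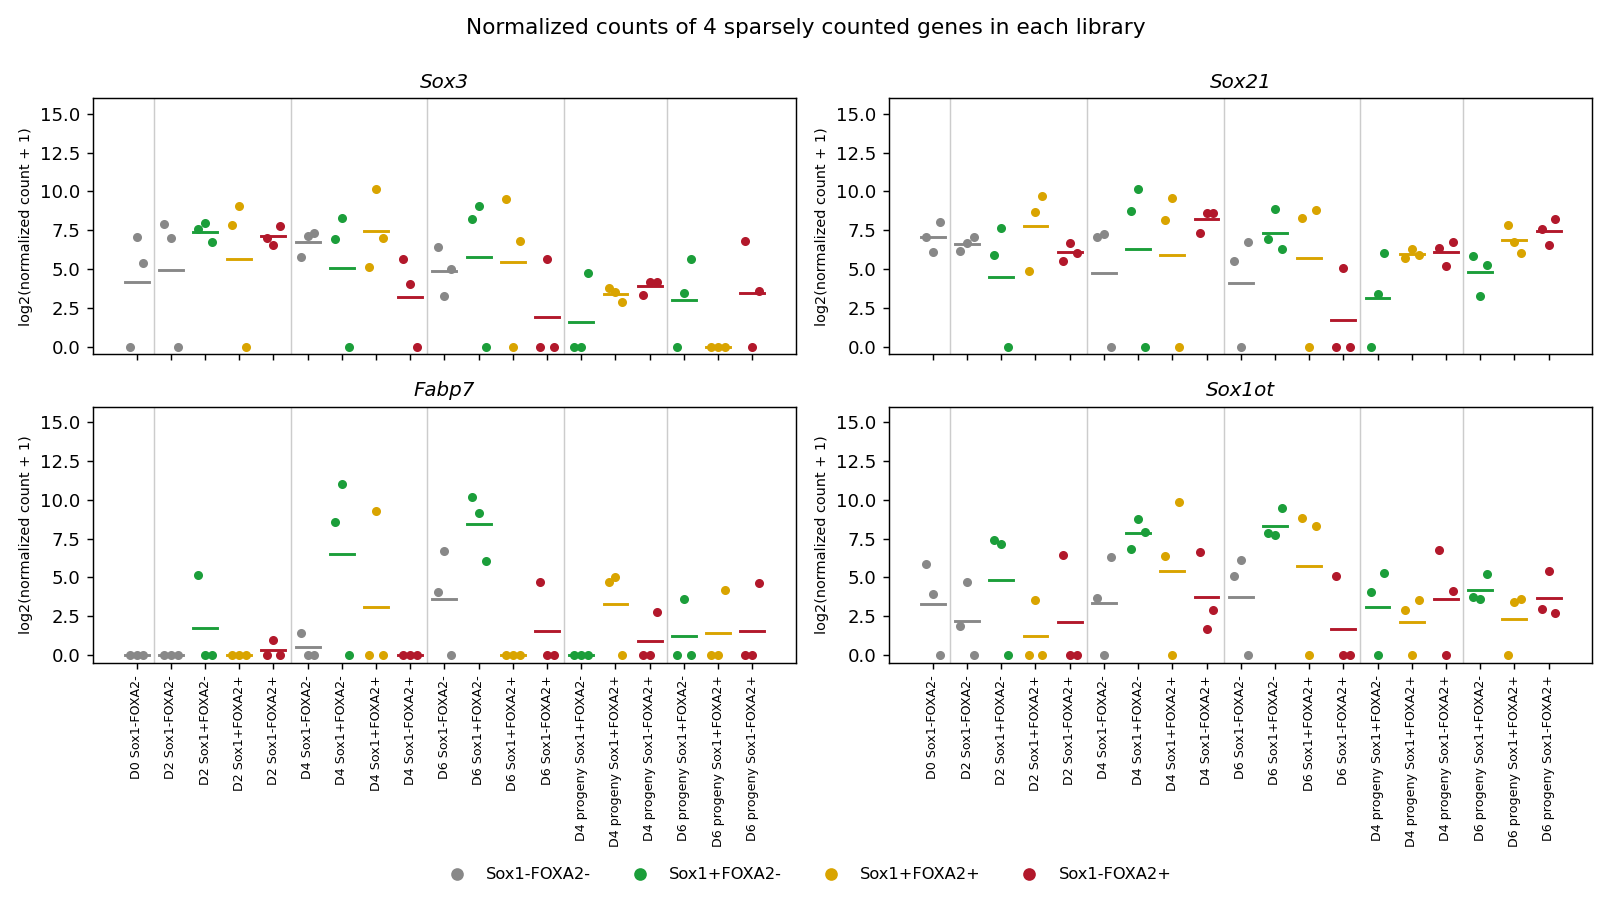
Normalized counts, as log2(normalized count + 1), of Sox3, Sox21, Fabp7 and Sox1ot in each library, drawn as for the other members. Fabp7 is at 0 in 39 of 57 libraries, and its highest points are D4 and D6 libraries of the Sox1+ gates.

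Promoters of 6 members, in 7 windows, were found in the RefSeq promoter table for GRCm38.p6, each running from 250 bases before to 50 bases after a start site. Those of Pax6, Nes and Sox11 are printed because these genes passed the tests below. They span chr3:87970843-87971142 (plus strand) for Nes, chr2:105668646-105668945 and chr2:105682213-105682512 (plus strand) for 2 Pax6 start sites, and chr12:27342669-27342968 (minus strand) for Sox11. Capitals mark matches, on either strand, to AACAAT or ACAAAG (SOX factors), AGGTCA or AGTTCA (nuclear receptors such as those for RA), ATGCAAAT (the octamer) or CAGCTG (an E-box).
Nes: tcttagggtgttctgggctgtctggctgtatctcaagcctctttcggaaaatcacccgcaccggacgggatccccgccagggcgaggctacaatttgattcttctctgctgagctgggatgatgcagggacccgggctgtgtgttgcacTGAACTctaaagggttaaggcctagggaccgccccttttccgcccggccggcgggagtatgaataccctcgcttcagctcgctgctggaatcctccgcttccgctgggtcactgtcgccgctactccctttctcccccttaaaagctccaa
Pax6, upstream start site: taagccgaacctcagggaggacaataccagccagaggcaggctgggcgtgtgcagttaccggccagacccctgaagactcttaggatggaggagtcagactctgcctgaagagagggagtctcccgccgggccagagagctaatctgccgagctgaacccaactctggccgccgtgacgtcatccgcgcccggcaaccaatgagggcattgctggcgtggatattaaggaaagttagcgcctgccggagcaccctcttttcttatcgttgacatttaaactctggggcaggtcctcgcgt
Pax6, downstream start site: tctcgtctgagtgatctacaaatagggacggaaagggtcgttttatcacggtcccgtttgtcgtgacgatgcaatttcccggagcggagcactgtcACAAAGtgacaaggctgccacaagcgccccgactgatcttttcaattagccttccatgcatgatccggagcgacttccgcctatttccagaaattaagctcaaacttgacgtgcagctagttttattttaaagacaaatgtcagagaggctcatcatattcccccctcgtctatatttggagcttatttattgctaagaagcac
Sox11: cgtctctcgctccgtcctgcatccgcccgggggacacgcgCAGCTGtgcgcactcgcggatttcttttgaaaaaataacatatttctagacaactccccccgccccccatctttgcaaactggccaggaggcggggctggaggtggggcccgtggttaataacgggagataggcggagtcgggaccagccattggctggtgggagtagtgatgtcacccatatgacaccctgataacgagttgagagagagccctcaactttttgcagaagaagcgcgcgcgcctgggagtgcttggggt
The Nes window held TGAACT, the reverse complement of AGTTCA, and the downstream Pax6 window held ACAAAG. The upstream Pax6 window held none of the 6 motifs and that of Sox11 held CAGCTG. Of all 32851 windows of this length, AGTTCA was found on either strand in 14.0%, ACAAAG in 18.7% and CAGCTG in 16.3%, so each match is of a common kind. Among the members not printed, the Fabp7 window held both AGGTCA (in 16.3% of all windows) and AGTTCA, the Sox1ot window held AACAAT at 2 places (10.7%) and CAGCTG, and the Sox21 window held none. ATGCAAAT (1.7%) was in no window of a member. Sox9, Sox3, Msi1 and Cpe had no entry.

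The first comparison asked how the members differ between cells positive only for the neuroectoderm reporter and cells positive only for the endoderm reporter. At D2 no difference was detected. Pax6 had 4955, 1888 and 698 normalized counts in the 3 Sox1+FOXA2- libraries and 899.7, 546 and 1545 in the Sox1-FOXA2+ libraries, and Nes had 2809, 1676 and 515 against 1279, 1332 and 2099.7. The libraries of both genes overlapped. With edgeR's quasi-likelihood test and Benjamini-Hochberg adjustment over all 20369 genes tested, 0 of 9 members tested passed an adjusted p of 0.05 (1 at an unadjusted p under 0.05, and 0 with DESeq2), where 0.00491% of all genes were called. Here and below, the share of all genes called is that at the adjusted threshold in edgeR. Counts of members at an unadjusted p have no share of all genes beside them. Fabp7 was not tested at D2 because its counts were too low.

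At D4 Pax6 passed the test and was higher on the Sox1+FOXA2- side. The study had already named Pax6 as higher in populations sorted as Sox1+ in these libraries, so its calls are no independent support. Pax6 had 963, 2956 and 1318 normalized counts in Sox1+FOXA2- libraries and 106, 114 and 139.7 in Sox1-FOXA2+ libraries. The lowest of the former lay above the highest of the latter. The difference was 3.84 ± 0.78 (log2 fold change ± SE, edgeR, adjusted p = 0.0286), where 0.266% of 22946 genes were called in either direction. The call held in 8 of 12 edgeR fits that left out a library. It did not hold without replicate 2 of Sox1+FOXA2- (adjusted p = 0.269, edgeR) or without any of the 3 Sox1-FOXA2+ libraries (adjusted p of 0.183, 0.0939 and 0.0912).

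The other 9 members were all above 0 in this fit at D4 without passing the test. Their values ran from 0.67 for Cpe to 2.81 for Sox1ot, leaving aside Fabp7, and Msi1 was at 2.13 ± 0.62 (edgeR, adjusted p = 0.303). The median of the 10 members was 2.01 on the log2 scale, against 0.10 over all genes tested. Fabp7 was at 0 in all Sox1-FOXA2+ libraries and at 0 in 1 of 3 Sox1+FOXA2- libraries, which makes its mean at least 361-fold higher in Sox1+FOXA2- cells when each library at 0 is set to 3 counts; this rests on 2 libraries and did not pass the test. Same-numbered libraries deviated together at D4, and with the replicate number as a block Msi1 was called as well, at 2.10 (edgeR, adjusted p = 0.0433). The share of all genes called in that fit is not given here.

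At D6 both Pax6 and Msi1 passed. Pax6 had 1042, 2905 and 1361 normalized counts in Sox1+FOXA2- libraries against 143, 87.3 and 45.8 in Sox1-FOXA2+ libraries. Msi1 had 2559, 3147 and 2049 against 399, 166 and 358. Neither gene's libraries overlapped. The differences were 4.05 ± 1.03 (log2 fold change ± SE, edgeR, adjusted p = 0.0399) for Pax6 and 2.92 ± 0.64 (log2 fold change ± SE, edgeR, adjusted p = 0.00989) for Msi1, in a comparison that called 1.32% of all genes. Without Sox1+FOXA2- replicate 2 both calls were lost, with adjusted p in edgeR of 0.218 for Pax6 and 0.065 for Msi1. That of Msi1 was also lost without Sox1-FOXA2+ replicate 2 (0.0611), that of Pax6 without Sox1-FOXA2+ replicate 1, 2 or 3 (0.0722, 0.182 and 0.152), and Pax6 was also lost without edgeR's robust moderation (adjusted p = 0.0727). With the replicate block, for which the share of all genes called is not given here, Nes passed too, at 1.85 (edgeR, adjusted p = 0.0185).

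Nes itself had 4816, 4149.8 and 1228 in D6 Sox1+FOXA2- libraries and 881, 819 and 467 in Sox1-FOXA2+ libraries. Sox11 had 3975, 5381 and 2033 against 696, 284 and 658. Neither overlapped, but they did not pass the unblocked test (adjusted p = 0.371 and 0.173, edgeR). In all, 8 of the 10 members had no overlap with the Sox1+FOXA2- libraries higher, where 16.3% of all genes did, and the 2 others were Sox9 and Sox3. The median of the 10 members was 3.38 against 0.30 over all genes. The members were chosen with earlier results of these data known, among them those of Pax6 and Nes. Their shares and medians at D4 and D6 therefore cannot be weighed against those of all genes.

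**Figure D3:**
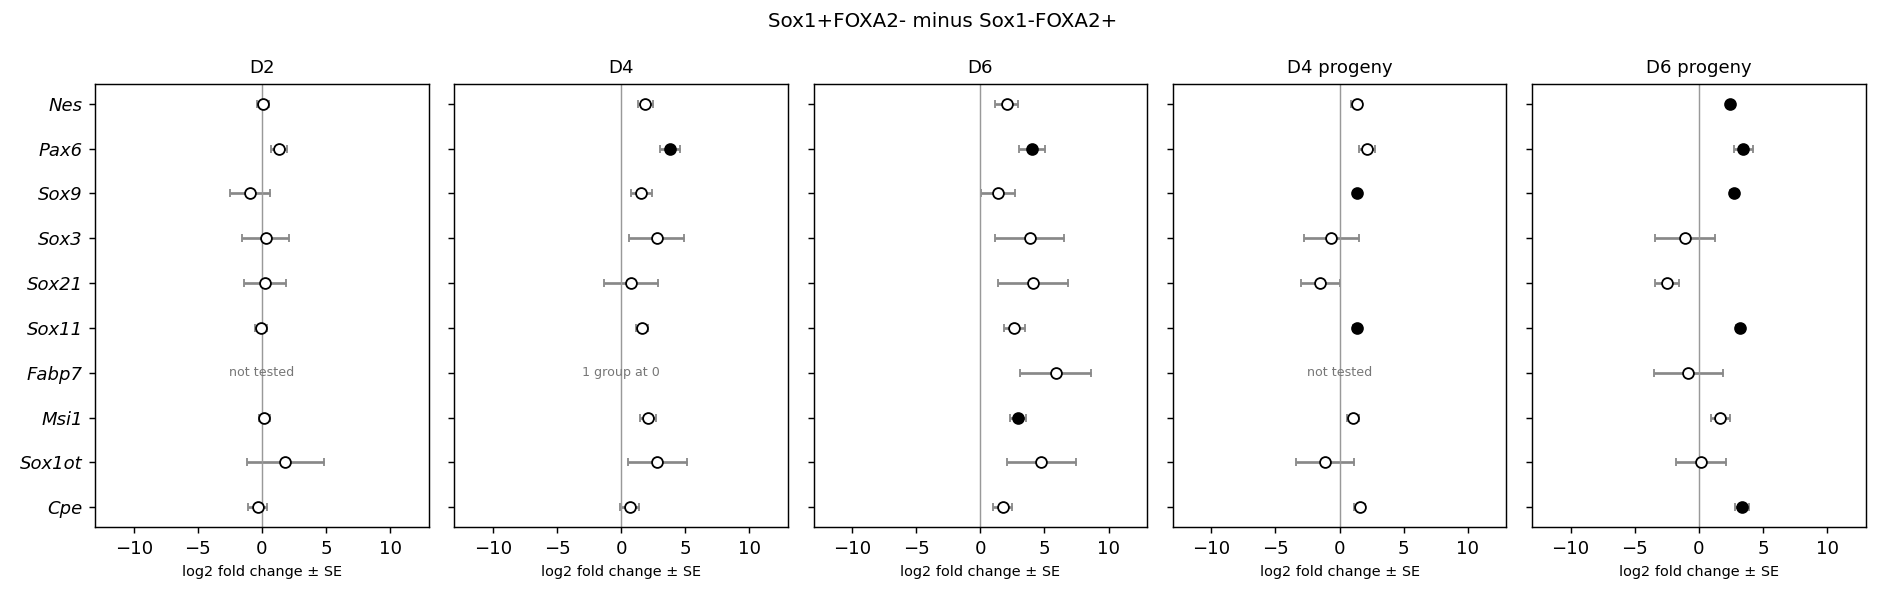
Log2 fold change ± SE of each member, Sox1+FOXA2- minus Sox1-FOXA2+, at D2, D4 and D6 and in the progeny at D4 and D6 (3 libraries a group). Filled points passed an adjusted p of 0.05 in edgeR; words replace the point where Fabp7 was not tested or 1 group was at 0. The members lie on both sides of 0 at D2 and to the right of it at D4 and D6, whereas in the progeny Sox3 and Sox21 lie to the left.

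Other cell types moved with this comparison. The summed normalized counts of 18 visceral and parietal endoderm markers were 13577 to 20336 in D6 Sox1+FOXA2- libraries and 1045240.0 to 2151100.0 in D6 Sox1-FOXA2+ libraries, with 9 of 18 markers called lower in the former. The 14 neuron markers summed to 6099.8 to 9408 and 904 to 3343, with Dcx, Neurog1, Neurog2, Nhlh1 and Isl1 among those at 0 in all Sox1-FOXA2+ libraries. Tubb3 and Neurod1 were at 0 in all 19 groups and do not tell any groups apart. Their part in the members' values was not tested.

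A wider list of 29 neural progenitor genes moved less evenly. At D4, 4 of 24 tested passed and all were higher in Sox1+FOXA2- cells: Ptn at 2.72, Dach1 at 2.43, Cdh2 at 2.20 and Lin28b at 1.91. The median of the 24 was 2.22. At D6, Ptn (4.88), Cdh2 (2.64) and Msi2 (1.54) were higher and Vim, a filament gene that mesenchymal and parietal endoderm cells also express, was lower (-1.67), of 25 tested.

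Cells positive for both reporters were compared with each population positive for a single reporter. Against Sox1-FOXA2+ cells, which are also the reference above, 0 members passed at D2, D4 or D6 (edgeR; 1, 2 and 6 at an unadjusted p under 0.05, and 0, 2 and 2 with DESeq2). At the adjusted threshold in edgeR 0%, 0.475% and 0.0909% of all genes were called, and these shares are no measure for the unadjusted counts. Pax6 in Sox1+FOXA2+ libraries had 332, 1882 and 793 at D4 and 376, 2924 and 90.5 at D6. The D4 libraries lay above all Sox1-FOXA2+ libraries, at 2.69 ± 0.74 (edgeR, adjusted p = 0.14), and the D6 libraries overlapped with them.

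The 3 D6 Sox1+FOXA2+ libraries lay far apart. Nes had 4139, 6985 and 430.3, Sox11 1666, 5359.5 and 328 and Msi1 1174, 3485 and 983. Replicate 3 was the lowest for all 3 genes and replicate 2 the highest. The 18 endoderm markers summed to 106898, 302203 and 762690.0 in the same libraries, and replicate 3 was the highest for these. Without replicate 3, 4 members passed against Sox1-FOXA2+ cells: Nes at 2.71, Pax6 at 4.00, Sox11 at 2.54 and Msi1 at 2.77. Replicate 3 was singled out by its low values of these genes, so the calls without it show how much rests on that library. They are no separate support for a difference, and the share of all genes called in that fit is not given here.

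Against Sox1+FOXA2- cells, 0 members passed at any day (edgeR; 1, 3 and 1 at an unadjusted p under 0.05, and 0, 0 and 1 with DESeq2), and 0%, 0% and 0.0496% of all genes were called. At D4 the fitted log2 fold changes had a median of -1.15 with none past the test, with Sox3 at 1.16 and Sox1ot at -0.02, and Sox9 had 538, 92.1 and 794 against 1281, 2046 and 981. At D6 Fabp7 was the member that separated, being at 0 in all Sox1+FOXA2+ libraries and counted in all Sox1+FOXA2- libraries. Its mean was at least 174-fold lower in Sox1+FOXA2+ cells with each library set to 3 counts, but it did not pass (edgeR, adjusted p = 0.571), where 4.74% of all genes separated in this direction.

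Cells negative for both reporters after the same days in RA gave no call against the Sox1+FOXA2- population, at D2, D4 or D6, for any gene of the table (edgeR, 0% each; 3, 4 and 0 members at an unadjusted p under 0.05, and 0 members with DESeq2 on each day). Pax6 in the Sox1-FOXA2- libraries had 290.0, 1197 and 643 at D4 and 799, 297 and 723 at D6. At D6 the Pax6 libraries of the 2 groups did not overlap, at 1.39 ± 0.92, nor did those of Msi1, at 0.98 ± 0.60, and Sox1ot, at 3.23 ± 2.47, where 10.2% of all genes separated this way. A difference that fails the test is not shown to be absent, and the standard errors of 0.60 (Msi1) to 2.56 (Sox3) on the log2 scale at D6 leave room for differences of severalfold.

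The progeny comparison asked whether the populations sorted at D2, where no difference was detected, differed after 2 or 4 further days in culture. In the D4 progeny, Sox9 and Sox11 were higher after Sox1+FOXA2- than after Sox1-FOXA2+ origin. Sox9 had 5602, 6784 and 4032 normalized counts against 2224, 2385 and 1592, and Sox11 had 4380.2, 6437 and 4708 against 2095, 2386 and 1479.6. The libraries of neither gene overlapped. The differences were 1.38 ± 0.29 (log2 fold change ± SE, edgeR, adjusted p = 0.0133) and 1.36 ± 0.31 (log2 fold change ± SE, edgeR, adjusted p = 0.0244), where 1.97% of genes were called. Without Sox1+FOXA2- progeny replicate 2 both calls were lost (edgeR, adjusted p = 0.0678 for Sox9 and 0.0881 for Sox11). So they were without Sox1-FOXA2+ progeny replicate 3 (0.0573 and 0.0971), and Sox11 also without replicate 1 of that group (0.0769). Both calls were lost (adjusted p = 1) when all 57 libraries shared a single estimate of the spread.

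Same-numbered D4 progeny libraries deviated together, and the replicate block added calls. Replicate 1 of each D4 progeny group was its shallowest library, with 10170632 counts after Sox1-FOXA2+, 11189529 after Sox1+FOXA2- and 13480175 after Sox1+FOXA2+ origin. Each of these libraries also had the highest Nes of its group, and the part of depth was not tested. Nes had 37757, 20528 and 13769.8 and Cpe 4058, 3948 and 4039.8 in the Sox1+FOXA2- progeny, whereas the Sox1-FOXA2+ progeny had 14293, 5520.3 and 8267 of Nes and 480.3, 1036 and 2462 of Cpe. In each gene replicate 1, 2 and 3 of the former lay above the same-numbered library of the latter. With the block Nes was at 1.32 (edgeR, adjusted p = 9.25e-05) and Cpe at 1.77 (adjusted p = 0.0128), beside Sox9 and Sox11. The share of all genes called with the block is not given here, so the added calls are not shown to be particular to the members.

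The D4 progeny of Sox1+FOXA2+ cells gave 0 calls against those of Sox1-FOXA2+ cells without the block (edgeR; 3 at an unadjusted p under 0.05, and 2 with DESeq2), where 0.792% of genes were called. With the block Nes (0.77), Sox9 (0.80), Sox11 (1.19) and Cpe (1.69) passed, and the share of all genes called with the block is not given here. These are the same 4 genes as in the Sox1+FOXA2- comparison, which shares its Sox1-FOXA2+ libraries with it.

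In the D6 progeny more members passed. Nes had 15874, 22360.3 and 12291 normalized counts after Sox1+FOXA2- origin, 10631, 7428 and 10473 after Sox1+FOXA2+ origin and 3689, 2664 and 3108 after Sox1-FOXA2+ origin. Sox11 had 6005, 4489 and 4906 in the first, 3976, 3982 and 3997 in the second and 339.6, 722 and 679.7 in the third of these. The Sox1-FOXA2+ progeny were lowest and overlapped with neither of the others in both genes.

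In the same progeny, Sox9 had 3197, 2683 and 1906 after Sox1+FOXA2- origin, 4007, 3989 and 3292 after Sox1+FOXA2+ origin and 355, 516 and 334 after Sox1-FOXA2+ origin. Cpe had 10786, 10733 and 4212, then 3471, 5479.6 and 5809.5, then 309, 1123 and 1199 by the same origins. For Sox9 the Sox1+FOXA2+ progeny were the highest group, and for Cpe the Sox1+FOXA2- progeny. Pax6 had 317, 269 and 301, then 72.3, 197 and 257, then 29.3, 14.4 and 39.5.

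After Sox1+FOXA2- origin, 5 of 10 members passed against Sox1-FOXA2+ origin, all higher, where 3.32% of genes were called higher and 6.91% in either direction. The study had already named Nes, Sox9 and Cpe among the top loadings of a principal component that separated these populations in these libraries. It had also named Nes and Pax6 as higher in populations sorted as Sox1+. The calls of these 4 genes in comparisons of these populations are therefore no independent support, and the share of members passing cannot be weighed against that of all genes. Sox11 was at 3.19 ± 0.28 (log2 fold change ± SE, edgeR, adjusted p = 8.72e-06), Sox9 at 2.73 ± 0.28 (adjusted p = 3.39e-05, same test) and Nes at 2.46 ± 0.27 (adjusted p = 4.71e-05, same edgeR test). Cpe was at 3.35 ± 0.54 (edgeR, adjusted p = 0.00388) and Pax6 at 3.47 ± 0.76 (edgeR, adjusted p = 0.0101). The first 4 genes kept the call in all 9 fits without a library, and Pax6 in 7 of 9. Pax6 was lost without Sox1+FOXA2- progeny replicate 1 (edgeR, adjusted p = 0.0538) or Sox1-FOXA2+ progeny replicate 2 (0.0567). In the fit of all 57 libraries Sox11, Cpe and Pax6 passed, whereas Nes (adjusted p = 0.164) and Sox9 (0.342) did not.

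Sox21 went the other way. It had 56, 8.73 and 36.9 normalized counts after Sox1+FOXA2- origin and 188, 91.9 and 293 after Sox1-FOXA2+ origin, without overlap, at -2.45 ± 0.93 (log2 fold change ± SE, edgeR, adjusted p = 0.159), where 12.8% of all genes separated in this direction. It did not pass in edgeR, and it did with DESeq2 (adjusted p = 0.0177). Among sorted D6 cells the same gene had 121, 462 and 75.8 against 0, 32.7 and 0, with the Sox1+FOXA2- libraries higher. Msi1 separated without passing, at 1.68 ± 0.72, and Sox3, Fabp7 and Sox1ot reached no more than 112, 23.3 and 41.1 normalized counts in a D6 progeny library.

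After Sox1+FOXA2+ origin, 4 members passed against Sox1-FOXA2+ origin, where 2.28% of genes were called higher and 4.63% in either direction: Sox9 at 3.21, Sox11 at 2.77, Cpe at 2.49 and Nes at 1.58. Their adjusted p in edgeR were 7.25e-05, 9.56e-05, 0.0247 and 0.00262. Cpe kept the call in only 2 of 9 fits without a library (adjusted p up to 0.136, without Sox1+FOXA2+ progeny replicate 3), those without Sox1+FOXA2- progeny replicate 3 or Sox1-FOXA2+ progeny replicate 1, and none of the 4 passed in the fit of all 57 libraries. Pax6, at 2.66 ± 0.73, missed the threshold (edgeR, adjusted p = 0.052). Between the Sox1+FOXA2+ and Sox1+FOXA2- progeny 0 members passed at D4 or D6 (edgeR; 0 and 2 at an unadjusted p under 0.05, and 0 with DESeq2), where 0.00483% and 0.18% of all genes were called. At D6 the libraries of Nes, Pax6, Sox11 and Msi1 lay lower in the Sox1+FOXA2+ progeny without overlap, where 7.59% of all genes did, and those of Sox9 and Sox21 higher, where 8.95% did.

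Markers of other cell types moved with the progeny values. The 10 mesenchyme and smooth muscle markers summed to 65416 to 105031 in the D6 progeny of Sox1+FOXA2- cells, 26121 to 36232 in those of Sox1+FOXA2+ cells and 11466 to 39129 in those of Sox1-FOXA2+ cells. Of 9 tested, Postn (3.32), Acta2 (3.07) and Twist1 (2.44) were called higher after Sox1+FOXA2- than after Sox1-FOXA2+ origin, and Pdgfra lower (-2.11). The 8 neural crest markers summed to 6714 to 11382, 9019 to 11796 and 4156 to 5823 in the 3 progeny groups, with Snai2 called higher at 4.37. Foxd3 was at 0 in all 19 groups and does not tell any groups apart. Endoderm markers summed to 70458 to 185664 after Sox1+FOXA2- origin and 1181120.0 to 2229730.0 after Sox1-FOXA2+ origin. Neuron markers summed to 3643 to 4086 and 1111 to 1496, with Nhlh1 at 0 in both. The part of these cells in the values of Nes, Sox9, Sox11 and Cpe was not tested.

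Beyond the members, the wider progenitor list gave Ptn (3.88), Dach1 (2.44) and Vim (1.68) as higher after Sox1+FOXA2- than after Sox1-FOXA2+ origin at D6, of 22 tested, and none as lower. Of 15 SOX genes tested there, Sox11, Sox9, Sox12 (1.97) and Sox6 (1.25) were higher, and the endoderm genes Sox7 (-4.33) and Sox17 (-2.36) were lower. In the D4 progeny Ptn (3.21), Slc1a3 (2.74), Lin28b (1.44) and Cdh2 (1.35) were higher, of 21 tested.

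Change with time was followed within each gate. From D0 to D2 in Sox1-FOXA2- cells, 0 of 9 members tested passed (edgeR; 3 at an unadjusted p under 0.05, and 2 with DESeq2), where 1.93% of genes were called. Pax6 went from 52.3, 166 and 8.27 to 849, 487 and 479 normalized counts and Cpe from 2.49, 94.9 and 74.4 to 513, 337 and 316. Both separated, as did Msi1, at 2.97 ± 0.89 for Pax6, 2.79 ± 0.83 for Cpe and 1.20 ± 0.50 for Msi1, where 13.6% of all genes separated upwards. Their adjusted p in edgeR were 0.0928, 0.0919 and 0.27.

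From D2 to D6, 0 members passed in any of the 4 gates (edgeR; 4, 1, 0 and 3 at an unadjusted p under 0.05 in Sox1-FOXA2-, then Sox1+FOXA2-, then Sox1+FOXA2+, then Sox1-FOXA2+ cells, and 0, 1, 0 and 2 with DESeq2). All genes were called at 0.0188%, 0%, 0.126% and 2.23%. In Sox1-FOXA2+ cells all 9 members tested were below 0, with a median of -1.43 against 0.01 over all genes. Pax6 there went from 899.7, 546 and 1545 to 143, 87.3 and 45.8 and Msi1 from 1033, 1244 and 2103 to 399, 166 and 358. Neither gene's libraries overlapped (7.92% of all genes separated downwards), both had an adjusted p of 0.0647 in edgeR, and both passed with DESeq2. In Sox1+FOXA2- cells 9 of 10 members were above 0, with Pax6 as the exception at -0.71. The whole table leaned the same way there, with 19.9% of all genes separating upwards and 5.32% downwards, so this is not particular to the members.

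Between D4 and D6, Sox9 and Sox11 fell in the progeny of Sox1-FOXA2+ cells. Sox9 fell from 2224, 2385 and 1592 to 355, 516 and 334 and Sox11 from 2095, 2386 and 1479.6 to 339.6, 722 and 679.7, without overlap. The differences were -2.37 ± 0.29 (log2 fold change ± SE, edgeR, adjusted p = 3.87e-05) and -1.78 ± 0.30 (log2 fold change ± SE, edgeR, adjusted p = 0.00359), where 0.208% of genes were called lower and 0.341% in either direction. Nes, with 14293, 5520.3 and 8267 at D4 and 3689, 2664 and 3108 at D6, separated at -1.56 ± 0.36 without passing (edgeR, adjusted p = 0.0633). In the progeny of Sox1+FOXA2- and of Sox1+FOXA2+ cells 0 members passed over the same interval (edgeR; 1 and 3 at an unadjusted p under 0.05, and 1 and 0 with DESeq2), with 0.0125% and 0.0916% of genes called. Whether the change differs between origins was not tested. Both calls were lost (adjusted p = 1) in the fit of all 57 libraries.

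**Figure D4:**
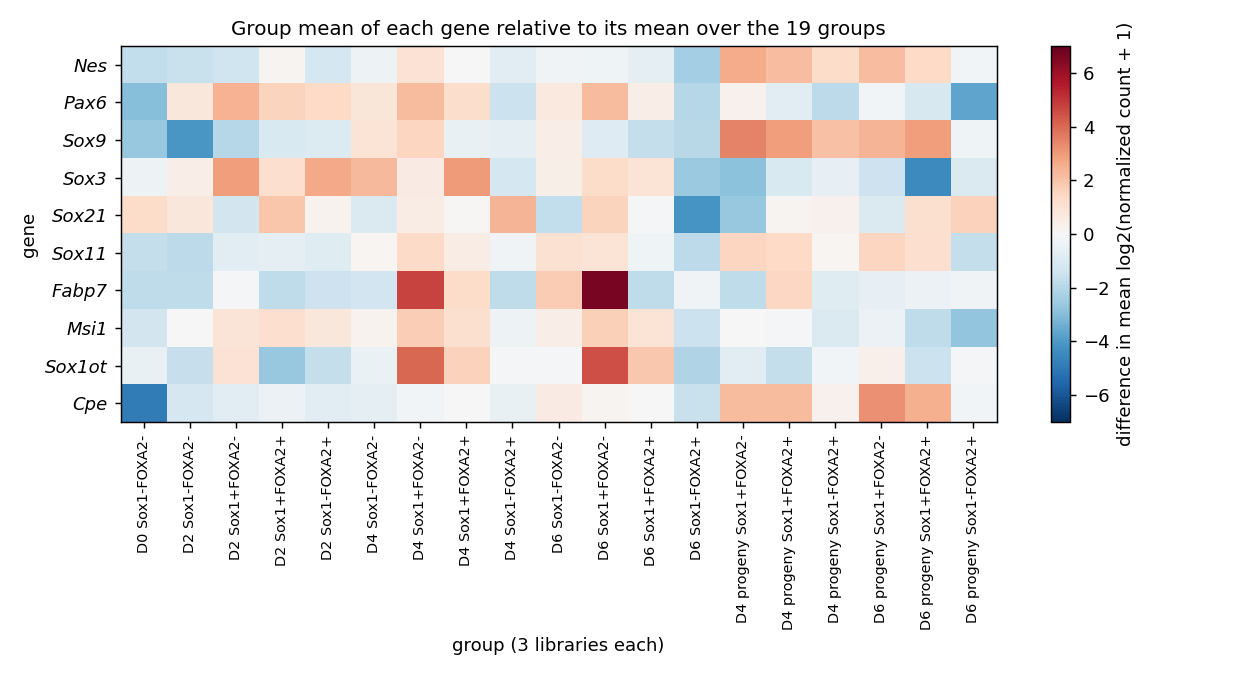
Mean log2(normalized count + 1) of each member in each of the 19 groups (3 libraries each), minus the same gene's mean over the 19 groups. Red is above and blue below the gene's own mean; Nes, Sox9 and Cpe are red in every progeny group except the D6 progeny of Sox1-FOXA2+ cells, and Fabp7 and Sox1ot are reddest in D4 and D6 Sox1+FOXA2- cells.

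Replated progeny were set against cells sorted on the same day from the same gate. The progeny descend from cells sorted at D2, so these are parallel samples and not parent and descendant. The members split. Nes, Sox9, Sox11 and Cpe were above 0 in all 6 such comparisons and Pax6 and Msi1 in 0 of 6, whatever the origin. The calls were fewer. Sox9 was higher in progeny for Sox1+FOXA2+ cells at D4 and for Sox1+FOXA2- and Sox1+FOXA2+ cells at D6, and Cpe for Sox1+FOXA2+ cells at D4 and Sox1+FOXA2- cells at D6.

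At D6, Sox9 had 46.1, 169.9 and 453 normalized counts in sorted Sox1+FOXA2+ cells and 4007, 3989 and 3292 in progeny of that gate, at 4.25 ± 0.76 (log2 fold change ± SE, edgeR, adjusted p = 0.00229). In Sox1+FOXA2- cells it had 683, 427 and 61 and 3197, 2683 and 1906, at 2.95 ± 0.71 (log2 fold change ± SE, edgeR, adjusted p = 0.0175). No sorted library reached a progeny library in either gate. Cpe in the latter gate had 634, 1803 and 860.0 and 10786, 10733 and 4212, at 3.18 ± 0.67 (log2 fold change ± SE, edgeR, adjusted p = 0.0101). These comparisons called 1.52% of genes higher in progeny in the Sox1+FOXA2+ gate (2.37% in either direction) and 2.06% in the Sox1+FOXA2- gate (3.4%). Each of the 3 calls held in 1 of 3 fits without a replicate number, with adjusted p in edgeR up to 0.136 without replicate 2, 0.304 without replicate 2 and 0.209 without replicate 3, in that order. Sox9 in the Sox1+FOXA2- gate was also lost in the fit of all 57 libraries (edgeR, adjusted p = 0.0904).

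At D4, Sox9 in the Sox1+FOXA2+ gate was at 3.16 ± 0.75 (log2 fold change ± SE, edgeR, adjusted p = 0.0472) and Cpe at 2.32 ± 0.58 (log2 fold change ± SE, edgeR, adjusted p = 0.0458), where 0.974% of genes were called higher and 1.32% in either direction. Both were lost with DESeq2 size factors in place of TMM and in the fit of all 57 libraries, Cpe without robust moderation, Sox9 with the replicate block (where Nes passed) and without replicate 1 (edgeR, adjusted p = 0.287), and Cpe without replicate 1 (0.0601) or 3 (0.0938). Msi1 was the member called lower in progeny, in the Sox1+FOXA2+ gate at D6, with 1174, 3485 and 983 in sorted cells and 166, 256 and 321 in progeny. The difference was -2.75 ± 0.74 (log2 fold change ± SE, edgeR, adjusted p = 0.0437), where 0.847% of genes were called lower, and it was lost in all 3 fits without a replicate number (adjusted p up to 0.366) with the replicate block and without robust moderation.

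Pax6 was not called in these comparisons. At D6 it had 1042, 2905 and 1361 in sorted Sox1+FOXA2- cells and 317, 269 and 301 in progeny of that gate, at -2.39 ± 0.95 (edgeR, adjusted p = 0.198). The whole table shifted in the same direction, with a median of -0.53 over all genes in that comparison and 23.9% of genes separating downwards. Fabp7 had 370.4, 2104 and 0 in sorted D4 Sox1+FOXA2- libraries and 0 in all 3 D4 progeny libraries of that gate. In the Sox1-FOXA2+ gate 0 members passed at D4 or D6 (edgeR; 2 and 3 at an unadjusted p under 0.05, and 2 and 1 with DESeq2), with 0.173% and 0.121% of genes called, and likewise 0 in the Sox1+FOXA2- gate at D4 (7 and 3), with 0.583%.

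**Figure D5:**
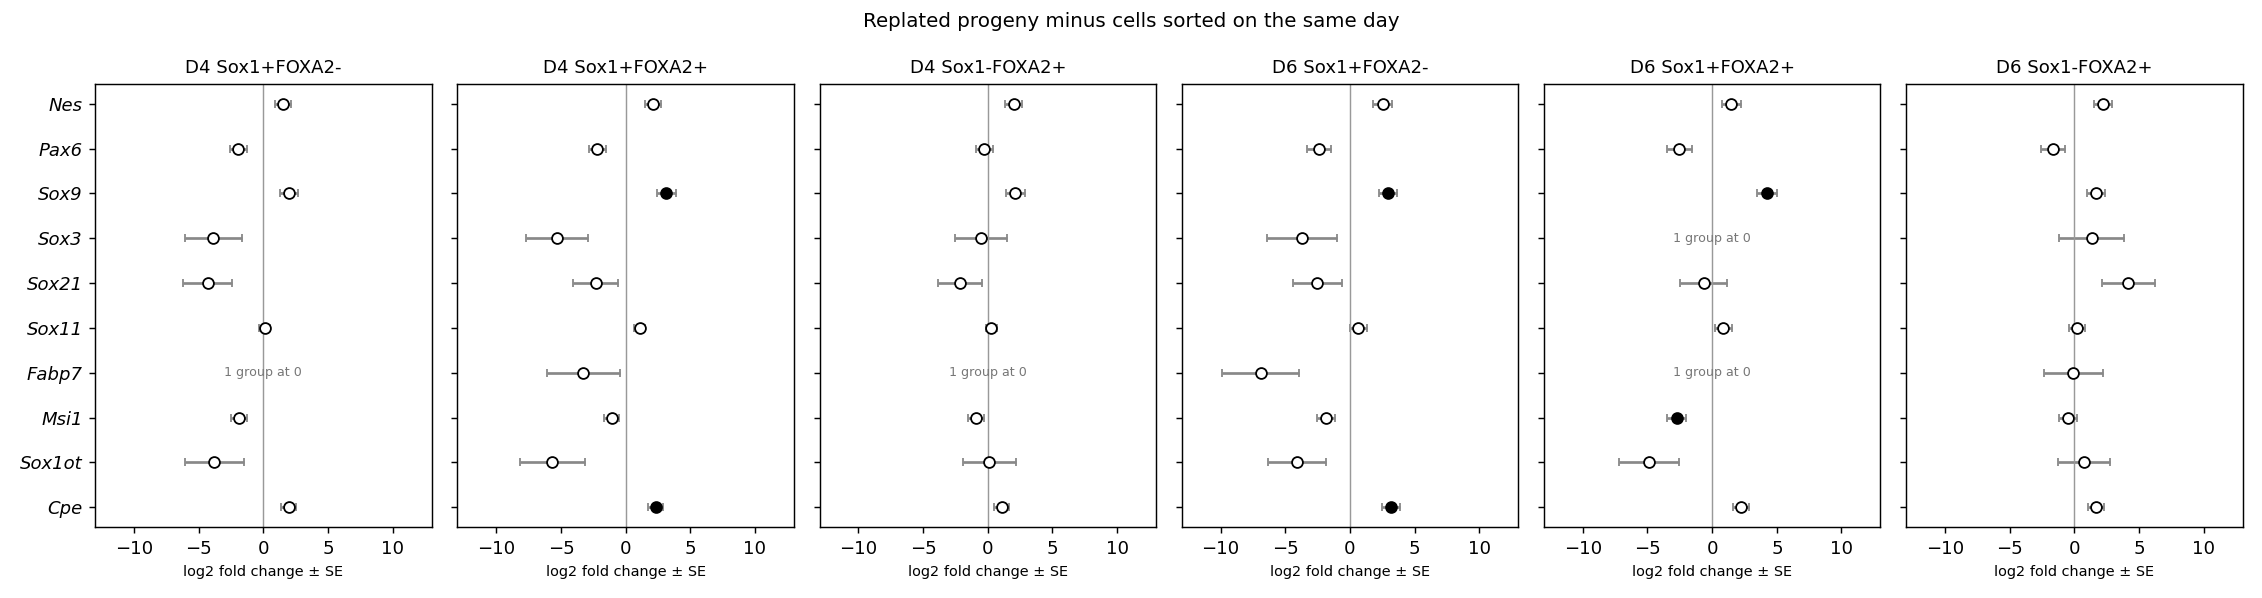
Log2 fold change ± SE of each member, replated progeny minus cells sorted on the same day, for the 3 gates at D4 and D6 (3 libraries a group). Filled points passed an adjusted p of 0.05 in edgeR; words replace the point of a member with 1 group at 0. Nes, Sox9, Sox11 and Cpe lie to the right of 0 in all 6 panels, and Pax6 and Msi1 to the left.

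Mesenchyme and smooth muscle markers were higher in the same progeny. The 10 markers summed to 1724 to 3514 in sorted D6 Sox1+FOXA2- cells and 65416 to 105031 in the D6 progeny of that gate. In these progeny 4 of 10 were called higher: Col1a1 (7.13), Col3a1 (6.65), Acta2 (6.44) and Pdgfra (4.21). Of the wider progenitor list, Vim was higher (3.11) while Rfx4 (-5.00) and Prom1 (-3.85) were lower, of 25 tested. Their part in the members' values was not tested.

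The difference between the Sox1+FOXA2- and Sox1-FOXA2+ populations was itself compared across time and culture with an interaction term. From D2 to D6 among sorted cells 0 of 10 members passed (edgeR; 3 at an unadjusted p under 0.05, and 2 with DESeq2), where 0.192% of genes were called, although all 10 were above 0 with a median of 2.75. The median and the share above 0 over all genes are not given here, so this direction is not shown to be particular to the members. Msi1 was at 2.78 ± 0.76 (edgeR, adjusted p = 0.158). Between progeny and sorted cells at D6 0 of 10 passed (1 at an unadjusted p under 0.05, and 0 with DESeq2), where 0.0196% of genes were called, with Sox21 at -6.70 ± 2.80 (edgeR, adjusted p = 0.376). A member called at D6 and not at D2, or in progeny and not in sorted cells, is therefore not shown to differ between them.

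Across the 19 group means of log2(normalized count + 1), members grouped as the levels did. Pearson's r was 0.924 between Pax6 and Msi1 and 0.914 between Nes and Sox9, 0.825 between Nes and Cpe and 0.823 between Nes and Sox11. It was -0.471 between Sox9 and Sox3. The points share gates, days and culture and are given as a description. Among 13922 genes with a mean of at least 100 normalized counts, the 5 whose pattern over the 19 groups was most like that of Pax6 were Pknox2 (r = 0.954), Hdgfl3 (0.949), Fzd3 (0.925), Msi1 (0.924) and Pbx3 (0.915). For Nes they were Myh10 (0.932), Tpm2 (0.929), Tpm1 (0.927), Marcks (0.917) and Git1 (0.915). For the sparsely counted Sox1ot the values were lower, led by 3110040N11Rik (0.772), 4933431K23Rik (0.766), Col4a3 (0.755), AC161258.2 (0.748) and Gm29455 (0.748).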

How the data were processed

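RNA of small pools of cells was sequenced from 57 libraries (SMART-Seq Stranded) in 19 groups of 3. The authors deposited raw counts per gene in a single table. STAR, SAMtools and featureCounts are named in the submitters' processing notes and the study's methods, with the GENCODE M21 annotation (GRCm38), and versions are not given in the sources used here. The table has 55450 genes and 92 lines that name no gene, all with 0 counts. Groups came from the sample labels. The members and all gene lists were chosen with earlier results of these data known. Among these results, the study's principal component analysis of the same libraries had named Nes, Sox9 and Cpe on the side of the Sox1+FOXA2- populations. The study had also named Nes and Pax6 as higher in populations sorted as Sox1+.

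From the counts, edgeR (version 4.0.16, in R 4.3.3) was run with TMM scaling, a filter on low counts (filterByExpr, minimum count 10, minimum total 15), robust quasi-likelihood fits and two-sided tests, with Benjamini-Hochberg adjustment over all genes tested and a threshold of 0.05. Robust fits were adopted to match earlier processing of the series. Groups of the same day shared a fit, and comparisons over time or of progeny with sorted cells were fitted on the groups they compare, as were the interaction terms. Normalized counts are counts divided by DESeq2 (version 1.42.0) size factors. Genes named beside Nes, Pax6 and Sox1ot were the 5 most alike by Pearson's r over the 19 group means; other named genes are the called genes of the lists (at most 4 in each direction), marker genes at 0 and Foxa2, the check of its gate. Depth was 10170632 to 81845651 counts per library. A library at 0 was set to 3 counts to bound a fold change, which covers counting error only. Promoters are RefSeq windows of GRCm38.p6. The fits were tested on simulated data with known changes. Alternatives were DESeq2 size factors, no filter, DESeq2's Wald test, the replicate number as a block, a fit of all 57 libraries, leaving out replicates and, chosen after seeing the data, edgeR without robust moderation.

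Replicate numbers were taken to pair samples where the deviations of all same-numbered libraries from their group means, over 5000 genes, correlated above 0.1. This held in 13 of 32 comparisons of groups, with correlations from -0.330 to 0.596 in all.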

Additional observations from a re-analysis of the deposited data

Results flagged for a closer look

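Vim, the filament gene vimentin of progenitor and mesenchymal cells, belongs to the wider neural progenitor list and changed its difference between populations with culture. It had 9241, 9492 and 5001 normalized counts in sorted D6 Sox1+FOXA2- libraries against 19753, 29586 and 17434 in Sox1-FOXA2+ libraries, and 83364, 52046 and 41609.7 against 14447, 25262 and 17112 in the D6 progeny. Relative to Sox1-FOXA2+, it was thus lower in sorted Sox1+FOXA2- cells and higher in the progeny of that gate. The interaction term was 3.24 on the log2 scale (edgeR, adjusted p = 0.00114). It was lost without replicate 1 of each group (adjusted p = 0.164, edgeR) and in the fit of all 57 libraries (3.37, adjusted p = 0.198), and held under the other 7 settings, at 3.20 to 3.53.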

How the results depend on the processing

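Of 452 repeats under another setting or without a library, 372 stayed within 1.5 times, 27 were smaller and 53 larger. Nearly all are counts of members called, and the rest repeat the members' levels and the most alike genes under another scaling. A count of 0 that stayed at 0 is among the 372. Members were called in only 9 of 34 comparisons in the main fits, so the 372 do not measure how stable the calls are. Of 300 repeats of single called genes, 242 kept the call, 58 lost it and 0 reversed; the cause was not tested. Low counts limit Fabp7, Sox1ot, Sox3 and Sox21, and 3 libraries a group limit all tests. Shares of all genes called are given for the main fits only and at the adjusted threshold. Counts of members at an unadjusted p under 0.05 are thus not shown to exceed those of all genes. Calls under another setting have no such share beside them and are not shown to be particular to the members.

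Members called with no filter on low counts numbered 1 in Sox1+FOXA2+ against Sox1-FOXA2+ at D4, Sox1+FOXA2- against Sox1-FOXA2- at D4, Sox1+FOXA2+ against Sox1+FOXA2- in D6 progeny, Sox1+FOXA2- from D2 to D6, Sox1-FOXA2+ from D2 to D6, Sox1+FOXA2- progeny from D4 to D6, and 2 in Sox1+FOXA2+ against Sox1-FOXA2+ in D4 progeny, Sox1-FOXA2- from D0 to D2, Sox1-FOXA2- from D2 to D6, D4 Sox1-FOXA2+ progeny against sorted cells, D6 Sox1-FOXA2+ progeny against sorted cells, and 4 in Sox1+FOXA2- against Sox1-FOXA2+ at D4, Sox1+FOXA2- against Sox1-FOXA2+ at D6, Sox1+FOXA2+ against Sox1-FOXA2+ at D6, Sox1+FOXA2- against Sox1-FOXA2+ in D4 progeny, and 5 in D4 Sox1+FOXA2- progeny against sorted cells, D6 Sox1+FOXA2+ progeny against sorted cells. With DESeq2's Wald test they numbered 1 in Sox1+FOXA2+ against Sox1+FOXA2- at D6, Sox1+FOXA2- from D2 to D6, Sox1+FOXA2- progeny from D4 to D6, D6 Sox1-FOXA2+ progeny against sorted cells, and 2 in Sox1+FOXA2+ against Sox1-FOXA2+ at D4, Sox1+FOXA2+ against Sox1-FOXA2+ at D6, Sox1+FOXA2+ against Sox1-FOXA2+ in D4 progeny, Sox1-FOXA2- from D0 to D2, Sox1-FOXA2+ from D2 to D6, D4 Sox1-FOXA2+ progeny against sorted cells, the change of the difference from D2 to D6, and 3 in Sox1+FOXA2- against Sox1-FOXA2+ at D4, D4 Sox1+FOXA2- progeny against sorted cells, and 4 in Sox1+FOXA2- against Sox1-FOXA2+ in D4 progeny, Sox1-FOXA2+ progeny from D4 to D6, D6 Sox1+FOXA2- progeny against sorted cells, and 5 in D4 Sox1+FOXA2+ progeny against sorted cells, and 6 in D6 Sox1+FOXA2+ progeny against sorted cells. With all 57 libraries in a single fit they numbered 0 in Sox1+FOXA2- against Sox1-FOXA2+ in D4 progeny, Sox1+FOXA2+ against Sox1-FOXA2+ in D6 progeny, Sox1-FOXA2+ progeny from D4 to D6, D4 Sox1+FOXA2+ progeny against sorted cells, and 1 in Sox1+FOXA2+ against Sox1-FOXA2+ at D6, Sox1-FOXA2+ from D2 to D6, and 3 in Sox1+FOXA2- against Sox1-FOXA2+ in D6 progeny. With DESeq2 size factors in place of TMM the count was 0 in D4 Sox1+FOXA2+ progeny against sorted cells. Without robust moderation it was 1 in Sox1+FOXA2- against Sox1-FOXA2+ at D6, D4 Sox1+FOXA2+ progeny against sorted cells, D6 Sox1+FOXA2+ progeny against sorted cells. Leaving out a library or a replicate number gave 0 to 1 in Sox1+FOXA2+ against Sox1-FOXA2+ in D4 progeny, Sox1-FOXA2- from D0 to D2, Sox1-FOXA2- from D2 to D6, Sox1+FOXA2- from D2 to D6, D4 Sox1-FOXA2+ progeny against sorted cells, D6 Sox1+FOXA2+ progeny against sorted cells, D6 Sox1-FOXA2+ progeny against sorted cells, and 0 to 2 in Sox1+FOXA2- against Sox1-FOXA2+ at D4, D4 Sox1+FOXA2+ progeny against sorted cells, D6 Sox1+FOXA2- progeny against sorted cells, and 0 to 3 in Sox1+FOXA2- against Sox1-FOXA2+ in D4 progeny, and 0 to 4 in Sox1+FOXA2- against Sox1-FOXA2+ at D6, Sox1+FOXA2+ against Sox1-FOXA2+ at D6.

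With the replicate number as a block the counts were 1 in D4 Sox1+FOXA2- progeny against sorted cells, D6 Sox1+FOXA2+ progeny against sorted cells, and 2 in Sox1+FOXA2- against Sox1-FOXA2+ at D4, and 4 in Sox1+FOXA2- against Sox1-FOXA2+ in D4 progeny, Sox1+FOXA2+ against Sox1-FOXA2+ in D4 progeny. The block changed the count of members called in no other comparison by more than 1.5 times. Where the numbers were not taken to pair the samples, they are only shared numbers.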

Other observations

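Prom1 and Rfx4, of the wider neural progenitor list, were lower in the D6 progeny of the Sox1+FOXA2- gate than in sorted D6 Sox1+FOXA2- cells. Prom1, a membrane protein of neuroepithelial cells, had 2126, 1363 and 1235 normalized counts in sorted libraries and 19.3, 119.8 and 148 in progeny. Rfx4, a transcription factor of the neural tube, had 1513, 2698 and 848 and 26.3, 26.2 and 92.2. Both were called lower in progeny, whereas Ptn, a secreted growth factor, had 5258, 3722 and 1468 and 8652, 17868 and 12715 and was not called.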
